A study of Homo sapiens with 8 samples.

Results

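Small nucleolar RNAs and small Cajal body RNAs with enough reads to compare were followed while H1 cells, a widely used line of human embryonic stem cells, were steered towards pharyngeal endoderm. The genes were those that GENCODE 29 types as snoRNA or scaRNA and whose RSEM expected counts summed to 500 or more over 8 libraries, which left 19 of 992 such genes and 19 of 58780 genes in the tables. They comprised 5 box C/D genes, 6 box H/ACA genes and 8 scaRNA genes by symbol. They were chosen by this summed count, so the sums are given as a description only. SNORD97, with 527.7 counts, was the lowest gene inside the limit, and SNORA57, with 367.7, the highest outside it.

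The stages were hESC, the undifferentiated cells, hDE, which are definitive endoderm, hAFE, from the anterior foregut, and hPFE, from the pharyngeal foregut, with 2 libraries each. Every group came from this 1 line, and the labels used here name no treatment, medium or day for any stage. Titles mark the libraries of hESC and hDE, but not the others, as re-analysed, so in hAFE vs hDE and in hPFE vs hESC the stage and whatever this mark stands for cannot be told apart. Nothing in the labels tells whether replicates were grown separately, so p-values reflect only how far these libraries spread, which may be technical. Because the samples are bulk RNA, fewer cells that make an RNA and less of it per cell cannot be told apart.

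Box C/D and box H/ACA RNAs work in nucleolar particles. Box C/D RNAs pair with a target and place 2'-O-methyl groups through fibrillarin, and box H/ACA RNAs place pseudouridines through dyskerin. A few, such as U3 and U17, help to cut the ribosomal RNA precursor instead. Small Cajal body RNAs carry one or both box types and guide the same modifications on spliceosomal small nuclear RNAs. Most human genes of these families lie in introns, and the RNA is trimmed out of the spliced intron of its host gene. U3 is a known exception with its own promoter.

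The sequences below are those whose levels or ratios carry the results, as GENCODE 29 gives them on hg38, 5' to 3' as DNA. Capitals mark the C box near the start (ATGATGA or GTGATGA in the first 15 bases), the D box near the end (CTGA in the last 10 bases) or, in those without a D box, ACA in the last 7 bases. U3 (SNORD3A, chr17:19188016-19188232, plus strand) and SNORD17 (chr20:17962710-17962946, minus strand) are the box C/D RNAs with the most counts.
SNORD3A: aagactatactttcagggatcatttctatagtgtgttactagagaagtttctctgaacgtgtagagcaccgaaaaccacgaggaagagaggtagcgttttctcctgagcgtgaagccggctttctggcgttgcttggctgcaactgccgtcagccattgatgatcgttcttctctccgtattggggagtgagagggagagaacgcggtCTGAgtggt
SNORD17: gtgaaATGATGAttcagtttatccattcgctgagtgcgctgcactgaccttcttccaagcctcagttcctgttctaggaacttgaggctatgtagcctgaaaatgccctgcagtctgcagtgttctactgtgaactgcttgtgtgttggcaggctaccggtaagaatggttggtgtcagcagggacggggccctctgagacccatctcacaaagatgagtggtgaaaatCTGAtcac

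The U17 copies SNORA73B (chr1:28508559-28508762, plus strand) and SNORA73A (chr1:28507366-28507571, plus strand) lie within the same host, SNHG3, and were identical in 192 of 206 aligned columns (93.2%). They are shown because their ratio hardly moved between libraries.
SNORA73B: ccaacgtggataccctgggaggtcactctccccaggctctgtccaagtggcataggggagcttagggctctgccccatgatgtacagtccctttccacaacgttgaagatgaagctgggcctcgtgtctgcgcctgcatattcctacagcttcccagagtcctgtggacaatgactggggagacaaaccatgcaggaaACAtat
SNORA73A: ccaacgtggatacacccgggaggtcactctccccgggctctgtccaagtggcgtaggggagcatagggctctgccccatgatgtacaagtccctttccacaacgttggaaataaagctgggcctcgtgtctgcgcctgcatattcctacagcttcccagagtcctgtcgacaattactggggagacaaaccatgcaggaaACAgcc

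SNORA74B (chr5:173020728-173020928, plus strand), a U19 gene, lies in an intron of ATP6V0E1. It is shown because its ratio to the other U19 gene, SNORA74A, differed between stages.
SNORA74B: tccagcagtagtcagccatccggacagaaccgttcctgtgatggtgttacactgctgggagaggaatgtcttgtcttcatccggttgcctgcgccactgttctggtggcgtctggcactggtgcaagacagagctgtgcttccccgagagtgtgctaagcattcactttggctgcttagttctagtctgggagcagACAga

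SCARNA5 (chr2:233275727-233276002, plus strand) and SCARNA6 (chr2:233288676-233288940, plus strand) both lie in introns of ATG16L1 and were identical in 185 of 291 aligned columns (63.6%). They share a host, and their ratio also differed between stages.
SCARNA5: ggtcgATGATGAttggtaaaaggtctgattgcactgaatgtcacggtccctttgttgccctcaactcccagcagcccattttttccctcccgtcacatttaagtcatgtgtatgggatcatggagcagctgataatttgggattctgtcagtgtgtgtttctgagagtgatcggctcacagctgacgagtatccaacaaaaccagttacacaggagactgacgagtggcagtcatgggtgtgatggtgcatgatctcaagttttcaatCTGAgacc
SCARNA6: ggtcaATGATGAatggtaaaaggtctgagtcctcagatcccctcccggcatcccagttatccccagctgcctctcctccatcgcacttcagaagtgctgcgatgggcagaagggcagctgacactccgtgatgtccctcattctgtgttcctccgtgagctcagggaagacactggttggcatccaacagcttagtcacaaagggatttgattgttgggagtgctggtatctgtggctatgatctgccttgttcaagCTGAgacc

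A C box in the first 15 bases was found in 4 of the 8 scaRNA genes (SCARNA5, SCARNA6, SCARNA7 and SCARNA10) and a D box in the last 10 bases in 75.0% of the 8. Only the RNA's own strand was searched, and copies of a motif could overlap. The same windows held a C box in 0.296% and a D box in 4.64% of all 206694 GENCODE transcripts. Among the box C/D genes, SNORD17 held the C box as spelled here. SNORD17 and all 3 U3 genes held the D box, and SNORD97 held neither spelling. ACA lay exactly 3 bases from the end in 3 of the 6 box H/ACA genes (SNORA73A, SNORA73B and SNORA23), against 2.37% of all transcripts. In SNORA23 this ACA overlaps a later one that has 1 base after it. SNORD3A differed from SNORD3B-1 and from SNORD3B-2 by A78C, counted from 1 at the first base of SNORD3A, and the snoRNA parts of SNORD3B-1 and SNORD3B-2 were identical over 217 bases.

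Length limited which genes could be counted, though most genes of 180 bases or more had no count either. The 19 genes ran from 142 to 420 bases with a median of 227.9, and the other 973 had a median of 123 bases. Of 388 genes under 100 bases none had a count, and RSEM listed their effective length, the number of places where a fragment could start, as 0. Of 443 genes from 100 to under 140 bases, 82 had a count and none reached 500. Of 97 genes of 180 bases or more, 34 had a count and 18 were included. The 19 genes held 99.7% of all snoRNA and scaRNA counts. A listed 0 for a shorter gene is therefore no measure of its RNA. That holds for the imprinted box C/D clusters, of which SNORD115 (48 genes), SNORD116 (30), SNORD113 (9) and SNORD114 (30) were all listed at 0. It also holds for U13 (SNORD13) and U14 (5 SNORD14 genes), both listed at 0. U8 (SNORD118), which helps to process 28S precursors, had 18.1 counts in all, and U22 (SNORD22) had 37.3.

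**Figure D1:**
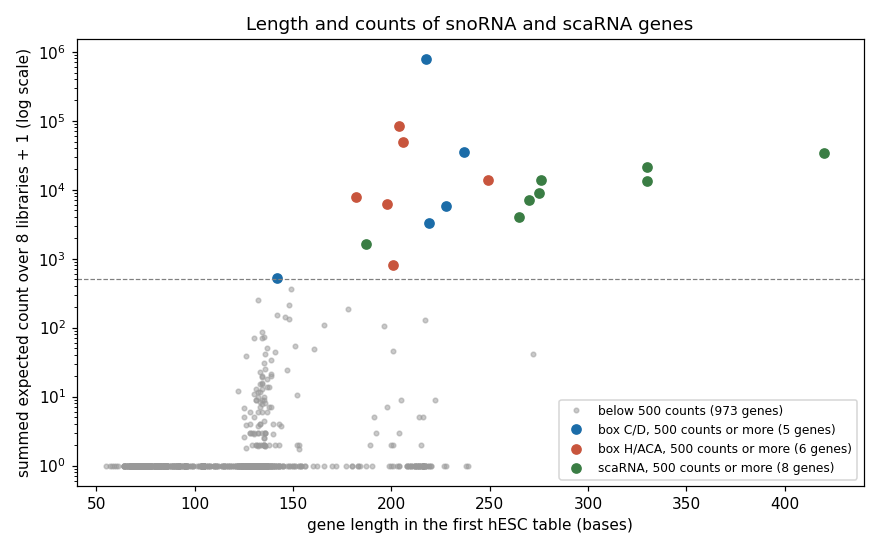
Each point is 1 of 992 snoRNA or scaRNA genes, with gene length in bases across and the summed expected count over 8 libraries plus 1 up on a log scale; the dashed line marks 500 counts. The 19 genes above the line are coloured by class, and genes under 100 bases all sit at 0 counts.

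Library totals ran from 12687161 to 17802900 expected counts. The 19 genes took 0.418% to 1.40% of them, and SNORD3A alone 0.235% to 1.01%. The fragment length implied by effective lengths was 185.4 to 197.9 bases, and genes of the mitochondrial genome held 11.4% to 19.2% of counts. Protein-coding genes held 64.7% and 62.7% of counts in the hDE libraries, against 68.8% to 74.5% in the others. Levels are given as CPM, counts relative to the TMM-scaled library total. The TMM factors were 0.872 and 0.855 in the hDE libraries, against 0.993 to 1.103 in the others. What set the hDE libraries apart in these values was not tested. Among stage markers, POU5F1 was at 858.0 and 942.2 CPM in hESC and at 25.8 or less elsewhere, SOX17 at 126.5 and 148.5 CPM in hDE and at 0.433 or less elsewhere, and PAX1 at 26.5 and 17.3 CPM in hPFE and at 0.658 or less elsewhere. Of markers of other cells, PAX6 and SOX1 were at 2.37 CPM or less everywhere, TWIST1 at 1.40 or less, and COL1A1 at 84.7 and 62.9 CPM in hPFE against 11.2 or less elsewhere. CGA was at 4.56 and 69.0 CPM in hAFE and GATA3 at 5.04 or less everywhere. The hAFE libraries also differed in several of the stage markers. HOTAIRM1 was at 55.5 and 3.73 CPM in hAFE, OTX2 at 16.98 and 332.6, GATA6 at 22.005 and 0.585, and SOX2 at 158.2 and 57.2. PAX9 was closer, at 25.4 and 21.8 CPM in hAFE. The part of other cells, or of these differences between the hAFE libraries, in the results below was not tested.

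**Figure D2:**
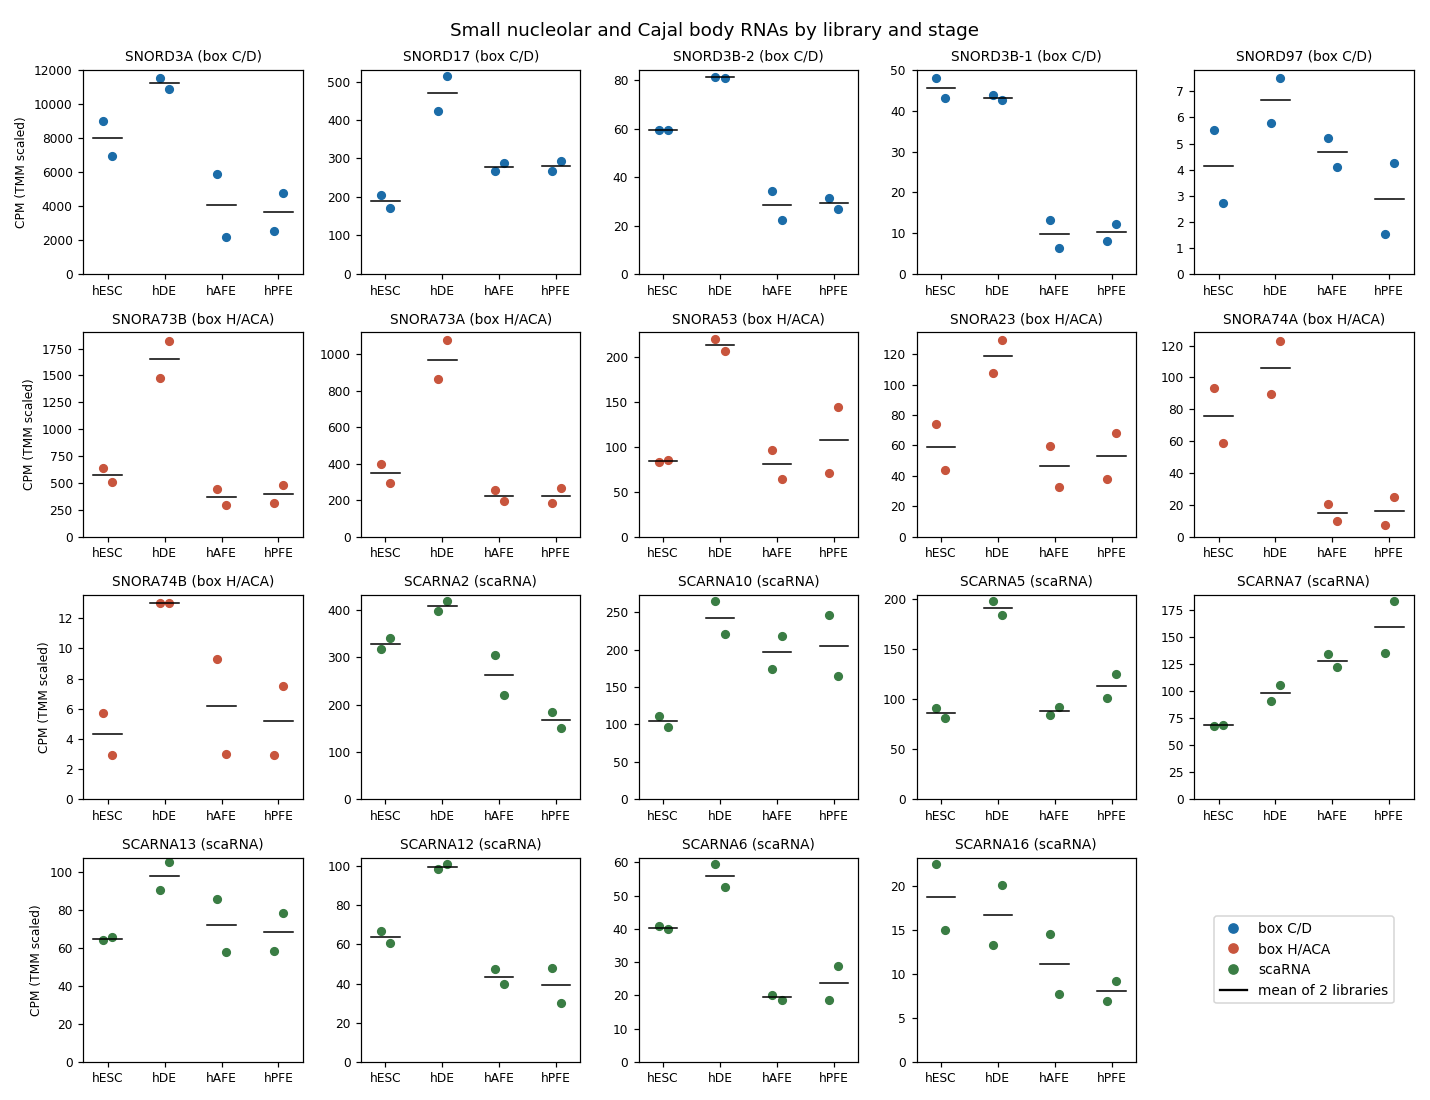
Each panel shows 1 gene, with the 4 stages across and TMM-scaled CPM up from 0; points are libraries and the line is the mean of 2. SNORA73B had 1481 and 1825 CPM in hDE and 638.2 or less in the other libraries, while SCARNA7 was highest in hPFE.

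The level of most of these RNAs peaked in hDE. The mean was highest in hDE for 16 of 19 genes, and in 14 of 19 both hDE libraries lay above the other 6, against 16.3% of all 17446 genes tested. In 9 of 19, all 4 hAFE and hPFE libraries lay below all 4 hESC and hDE libraries, against 12.2% of genes tested. SCARNA7 was the only 1 of the 19 with the opposite order. The earlier and later libraries also differ in the re-analysed mark, so stage and mark cannot be told apart in these orders. The summed box H/ACA level was 1294 and 994.0 CPM in hESC, 2778 and 3374 in hDE, 882.9 and 596.2 in hAFE, and 612.0 and 991.6 in hPFE. The summed scaRNA level was 781.0 and 768.5 CPM in hESC, 1212 and 1207 in hDE, 865.7 and 776.2 in hAFE, and 797.2 and 769.7 in hPFE. The hDE libraries were thus above every other library for both classes. The summed box C/D level followed SNORD3A, and without that gene it was 319.1 and 276.8 CPM in hESC, 555.7 and 644.8 in hDE, 319.4 and 322.1 in hAFE, and 307.8 and 336.8 in hPFE. These sums have no test.

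The first comparison asks which of the RNAs changed when stem cells became definitive endoderm, between stages whose libraries are both marked as re-analysed. Of 19 genes 8 rose and none fell in hDE (edgeR's quasi-likelihood test, Benjamini-Hochberg adjusted p under 0.05 over 17446 genes). Among all genes tested 20.3% rose and 21.6% fell. At an unadjusted p under 0.05 no gene was lower, and DESeq2 called 11 higher and 0 lower. The median log2 fold change of the 19 was 0.64, against -0.01 for all genes tested. By class, 3 of 6 box H/ACA, 1 of 5 box C/D and 4 of 8 scaRNA genes rose. The box H/ACA rises include both U17 genes, which resemble each other closely and are not separate cases.

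The U17 genes were among the largest rises. SNORA73B, part of the machinery that cuts out 18S ribosomal RNA, was at 1481 and 1825 CPM in hDE, against 638.2 and 509.3 in hESC. The groups did not overlap, and the log2 fold change was 1.53 (SE 0.28, adjusted p = 0.00414). SNORA73A was at 866.8 and 1077 CPM in hDE, against 399.1 and 294.0 in hESC (log2 fold change 1.49, SE 0.25, adjusted p = 0.00312). SNORA53, also a box H/ACA RNA, was at 220.3 and 206.8 CPM in hDE, against 83.1 and 85.2 in hESC (log2 fold change 1.34, SE 0.32, adjusted p = 0.0128). The SNORA53 call was lost when any of the 4 libraries was left out (adjusted p up to 0.0813). The other 3 box H/ACA genes did not pass. SNORA74B had the largest log2 fold change of the 19, 1.59, with 13 CPM in both hDE libraries against 5.71 and 2.94 in hESC (adjusted p = 0.0725). SNORA23 had adjusted p = 0.0690, and SNORA74A overlapped between the stages (adjusted p = 0.495).

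Among box C/D RNAs only SNORD17 rose. SNORD17, which is assigned to a methylation of 28S ribosomal RNA, was at 424.6 and 513.7 CPM in hDE, against 206.3 and 171.3 in hESC (log2 fold change 1.31, SE 0.16, adjusted p = 0.000751). U3 did not pass: SNORD3A was at 11572 and 10905 CPM in hDE, against 9035 and 6957 in hESC (log2 fold change 0.49, SE 0.46, adjusted p = 0.420). Both hDE libraries lay above both hESC libraries, but the spread shared by all stages was wide for this gene. SNORD3B-1, SNORD3B-2 and SNORD97 did not pass either, with log2 fold changes of -0.08, 0.45 and 0.70.

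The scaRNA genes that rose were guides of several small nuclear RNAs. SCARNA10 (U85), a guide of U5, was at 264.6 and 220.2 CPM in hDE, against 111.1 and 96.7 in hESC (log2 fold change 1.22, SE 0.22, adjusted p = 0.00415). SCARNA5 (U87) was at 198.0 and 184.2 CPM in hDE, against 91.0 and 81.1 in hESC (log2 fold change 1.15, SE 0.15, adjusted p = 0.000999). SCARNA7 (U90), a guide of U1, rose by 0.53 (adjusted p = 0.0406) and SCARNA12 (U89) by 0.64 (adjusted p = 0.0429) on the log2 scale. Both of these calls were lost when any of the 4 libraries was left out and with effective length offsets (adjusted p up to 0.252 and 0.194). SCARNA2, SCARNA6, SCARNA13 and SCARNA16 did not pass. The count of genes that rose was 5 when any 1 hESC or hDE library was left out and 15 when only these 4 libraries were fitted.

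The second comparison asks what followed between definitive endoderm and anterior foregut, with libraries that carry no such mark set against the same hDE libraries as above. Of 19 genes 13 fell and none rose in hAFE, while 15.2% of all genes tested fell and 15% rose. No gene was higher at an unadjusted p under 0.05, and DESeq2 called 0 higher and 13 lower. The median log2 fold change of the 19 was -1.19, against 0.01 for all genes tested. The falls took in 4 of 5 box C/D, 5 of 6 box H/ACA and 4 of 8 scaRNA genes. The box C/D falls include every U3 gene and the box H/ACA falls both U17 genes. The U3 genes resemble each other closely, as do the U17 genes, so these are not separate cases.

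The largest fall was in SNORA74A (U19), which is assigned to pseudouridines in 28S ribosomal RNA. It was at 20.6 and 9.65 CPM in hAFE, against 89.3 and 122.5 in hDE (log2 fold change -2.81, SE 0.58, adjusted p = 0.00914). Leaving out the second hDE library ended this call (adjusted p = 0.0567). SNORA73B fell to 439.1 and 293.2 CPM in hAFE (log2 fold change -2.17, SE 0.28, adjusted p = 0.00134), and SNORA73A to 257.5 and 193.1 CPM (log2 fold change -2.11, SE 0.26, adjusted p = 0.00104). SNORA53 and SNORA23 fell by 1.41 and 1.36 on the log2 scale (adjusted p = 0.0143 and 0.0338), and both calls were lost without either hDE library and without the second hAFE library (adjusted p up to 0.0771 and 0.156). SNORA74B did not pass, at 9.32 and 3.0 CPM in hAFE (adjusted p = 0.221).

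All 3 U3 genes fell in hAFE. SNORD3A was at 5915 and 2182 CPM in hAFE, against 11572 and 10905 in hDE (log2 fold change -1.47, SE 0.47, adjusted p = 0.0480). The groups did not overlap, but the hAFE libraries differed 2.71-fold, and the call was lost in 5 of 12 alternatives (adjusted p up to 0.162), which were leaving out either hDE library or the second hAFE library, fitting only the 4 libraries compared and the replicate block. SNORD3B-1 was at 13.3 and 6.43 CPM in hAFE, against 43.9 and 42.6 in hDE (log2 fold change -2.13, SE 0.33, adjusted p = 0.00277). SNORD3B-2 fell by 1.52 on the log2 scale (adjusted p = 0.00153). Reads of these copies can be shared, and the deposited posterior standard deviation reached 0.408 of the count for SNORD3B-1 and 0.309 for SNORD3B-2 in their least certain libraries, so both are uncertain. These genes also hold longer transcripts, of 758 bases for SNORD3B-1 and 791 for SNORD3B-2. SNORD17 fell to 266.6 and 289.4 CPM (log2 fold change -0.76, SE 0.16, adjusted p = 0.0100), which did not pass when the second hDE library was left out (adjusted p = 0.0867), and SNORD97 did not pass (adjusted p = 0.490).

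Of the 8 scaRNA genes 4 fell in hAFE and none rose. SCARNA6 (U88) was at 20.2 and 18.5 CPM in hAFE, against 59.4 and 52.7 in hDE (log2 fold change -1.53, SE 0.21, adjusted p = 0.00171). SCARNA12 fell by 1.19 and SCARNA5 by 1.12 on the log2 scale (adjusted p = 0.00539 and 0.00147). SCARNA2, a guide of U2 methylation, fell by 0.63 (adjusted p = 0.0359), and did not pass without either hDE library or the second hAFE library (adjusted p up to 0.168). SCARNA10, SCARNA13 and SCARNA16 did not pass, with log2 fold changes of -0.31, -0.45 and -0.58. SCARNA7 had a positive log2 fold change, 0.38, and did not pass either (adjusted p = 0.133). The count of genes that fell was 7 without the second hDE library and 9 to 14 without each other hAFE or hDE library.

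The third comparison, between the libraries with no such mark, asks what changed from anterior foregut to pharyngeal endoderm. No gene of the 19 passed in hPFE (edgeR), where 4.77% of all genes tested rose and 2.71% fell. At an unadjusted p under 0.05, 1 was higher (SCARNA5) and 1 lower (SCARNA2), and DESeq2 called 0 higher and 1 lower. SCARNA2 was at 184.1 and 150.9 CPM in hPFE, against 305.8 and 220.2 in hAFE (log2 fold change -0.65, SE 0.19, adjusted p = 0.0739), and was the gene that DESeq2 called and the 1 called without the second hAFE library or without a count filter. The other log2 fold changes ran from -0.70 in SNORD97 to 0.42 in SNORA53. A p that misses the threshold does not show equal levels here, since replicates of these stages differed widely. The first hAFE library was above the second for 16 of 19 genes, with a median ratio of 1.48, and the second hPFE library above the first for 15 of 19, with a median ratio of 1.45. The spread was widest in box H/ACA genes, with median ratios of 1.67 in hAFE and 1.92 in hPFE, against 1.15 and 1.29 in scaRNA genes.

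The last comparison sets the end of the culture against its start, with the mark on the hESC libraries only. In hPFE 3 of 19 genes rose and 7 fell, while 21.6% of all genes tested rose and 23.3% fell. SCARNA7 was at 135.1 and 183.3 CPM in hPFE, against 68.1 and 68.5 in hESC (log2 fold change 1.22, SE 0.17, adjusted p = 0.00146). SCARNA10 was at 245.9 and 164.8 CPM in hPFE, against 111.1 and 96.7 in hESC (log2 fold change 0.98, SE 0.22, adjusted p = 0.00947), but did not pass when the second hESC library was left out (adjusted p = 0.0785). SNORD17 was at 266.7 and 293.5 CPM in hPFE, against 206.3 and 171.3 in hESC (log2 fold change 0.57, SE 0.16, adjusted p = 0.0215). Its call was lost without either hESC library and without the second hPFE library (adjusted p up to 0.150).

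Falls from stem cells to pharyngeal endoderm were led by SNORA74A and SNORD3B-1. SNORA74A was at 7.41 and 24.8 CPM in hPFE, against 93.1 and 58.8 in hESC (log2 fold change -2.25, SE 0.57, adjusted p = 0.0146), but did not pass when the first hESC library was left out (adjusted p = 0.0810). SNORD3B-1 was at 8.13 and 12.2 CPM in hPFE, against 48.0 and 43.2 in hESC (log2 fold change -2.17, SE 0.33, adjusted p = 0.00192). SNORD3B-2 fell by 1.03, SCARNA2 by 0.97, SCARNA6 by 0.77, SCARNA12 by 0.71 and SCARNA16 by 1.22 on the log2 scale (adjusted p = 0.00552, 0.00482, 0.0193, 0.0297 and 0.0308). With effective lengths as offsets SNORD3B-2 had a log2 fold change of -2.52 and SNORD3B-1 one of -2.72. The calls of SCARNA6, SCARNA12 and SCARNA16 ended without either hESC library (adjusted p up to 0.0897, 0.129 and 0.172). Those of SCARNA12 and SCARNA16 ended also without the second hPFE library, that of SCARNA16 without the first, and that of SCARNA12 with only the 4 libraries compared. SNORD3A did not pass at 2548 and 4744 CPM in hPFE, against 9035 and 6957 in hESC, though the groups did not overlap (log2 fold change -1.13, adjusted p = 0.0812). The U17 genes did not pass, with log2 fold changes of -0.54 in SNORA73B and -0.62 in SNORA73A. With effective lengths as offsets SNORD3A, SNORA73B and SNORA73A did pass. Their log2 fold changes were then -1.34, -0.75 and -0.82 (adjusted p = 0.0492, 0.0423 and 0.0181 by edgeR). The count of calls was 5 without either hESC library.

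**Figure D3:**
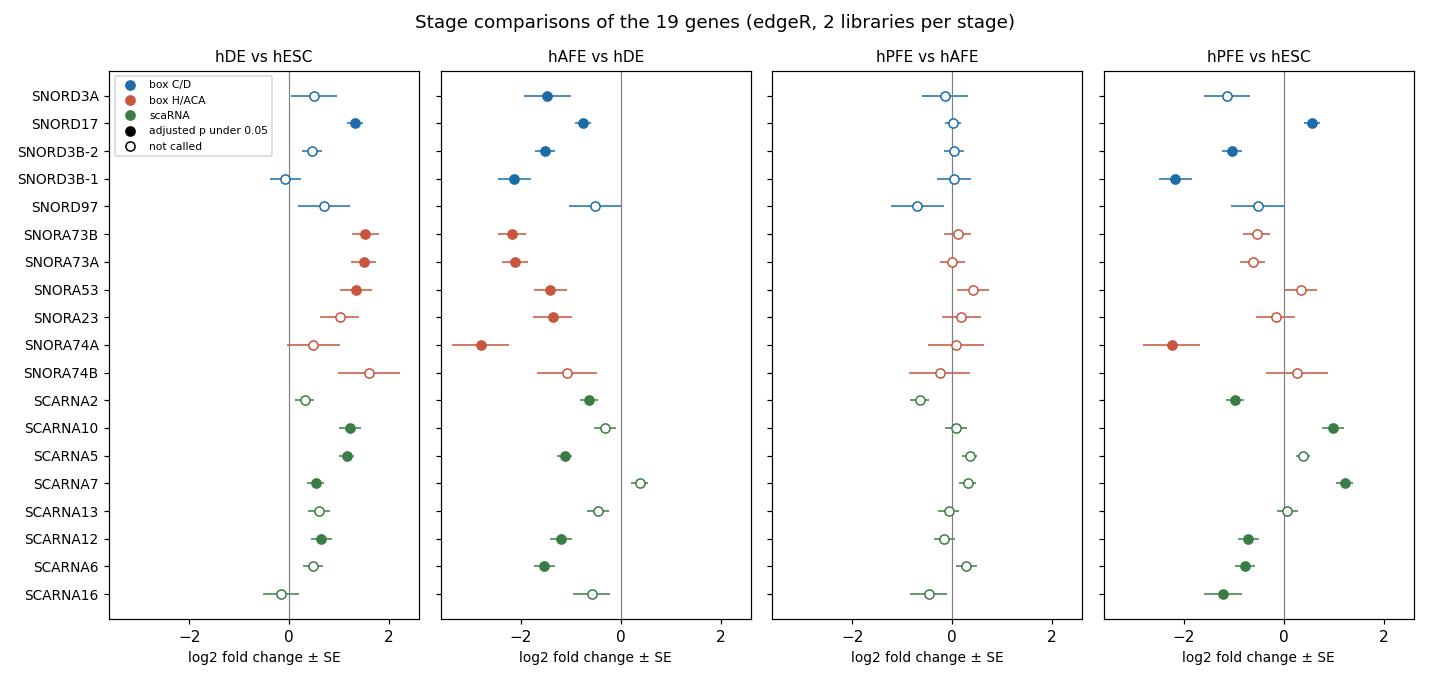
Log2 fold changes with their SE (edgeR) run across for each of the 19 genes down the page, 1 panel per comparison, first-named stage over the second; filled points had adjusted p under 0.05. Filled points lie right of 0 in hDE vs hESC (8 genes), left of 0 in hAFE vs hDE (13 genes) and are absent from hPFE vs hAFE.

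Effective lengths differed between stages as well. Leaving out the SNORD3B genes, the ratio of mean effective lengths was 1.02 in the median gene in hDE vs hESC (1.01 to 1.05), 1.02 in hAFE vs hDE (1.01 to 1.07), 1.06 in hPFE vs hAFE (1.02 to 1.07) and 1.11 in hPFE vs hESC (1.03 to 1.16). The SNORD3B genes hold transcripts of different lengths, and their ratios were larger. For SNORD3B-2 the ratio was 1.68 in hDE vs hESC and 3.02 in hPFE vs hESC, and its log2 fold change in hDE vs hESC, which did not pass, turned to -0.31 with lengths as offsets, against 0.45 without. For SNORD3B-1 the ratio was 1.22 in hDE vs hESC and 1.52 in hPFE vs hESC. With lengths as offsets 6 of the 19 genes passed in hDE vs hESC, 13 in hAFE vs hDE, 0 in hPFE vs hAFE and 13 in hPFE vs hESC. Other structured RNAs were also compared. RMRP (the entry annotated as a ribozyme), the RNA of the ribosomal RNA processing enzyme RNase MRP, was at 9697 and 9721 CPM in hDE, against 5693 and 6760 in hESC (log2 fold change 0.64, adjusted p = 0.0703). It fell to 3537 and 3557 CPM in hAFE (log2 fold change -1.45 against hDE, adjusted p = 0.00440). The other RMRP entry, annotated as a lincRNA, did not peak in hDE. It was at 382.26 and 269.65 CPM in hESC, 323.84 and 320.62 in hDE and 218.53 and 185.15 in hAFE. Its log2 fold changes were -0.02 in hDE vs hESC and -0.67 in hAFE vs hDE (adjusted p = 0.954 and 0.0335 by edgeR). RPPH1, the RNA of RNase P, was at 5886 and 5783 CPM in hESC, 7438 and 7755 in hDE and 5447 and 4848 in hAFE, and passed neither in hDE vs hESC nor in hAFE vs hDE (adjusted p = 0.238 and 0.118). RN7SL2, an RNA of the signal recognition particle that is uncertain because RN7SL1 is a near copy, was at 59487 and 52794 CPM in hESC, 105962 and 93268 in hDE and 37185 and 47933 in hAFE, and did not pass in these comparisons either (adjusted p = 0.183 and 0.0819). For the ribozyme entry of RMRP, RPPH1 and RN7SL2 both hDE libraries lay above the other 6, as they did for 14 of the 19 RNAs. RN7SK, which holds back the elongation factor P-TEFb, rose by 0.85 on the log2 scale in hDE vs hESC (adjusted p = 0.0147). It was at 12742 and 16342 CPM in hAFE, against 11165 and 12070 in hDE (adjusted p = 0.279). The part of RNA recovery in the results was not tested.

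RNAs that lie close together or resemble each other did not all move alike within a library. The ratio of SNORA73B to SNORA73A counts lay between 1.52 and 1.80 in all 8 libraries. The ratio of SCARNA5 to SCARNA6 counts, from introns of the same gene, was 2.23 and 2.03 in hESC, 3.33 and 3.50 in hDE, 4.17 and 4.95 in hAFE, and 5.45 and 4.32 in hPFE. All 4 libraries of the later stages lay above both hDE libraries, which lay above both hESC libraries. The later stages also lack the re-analysed mark that the hDE libraries carry, so stage and mark cannot be told apart in that step. The ratio of SNORA74A to SNORA74B counts was 16.3 and 20.0 in hESC, 6.87 and 9.40 in hDE, 2.21 and 3.22 in hAFE, and 2.54 and 3.31 in hPFE, and the hESC libraries lay above every other library. The ratios are of counts, without allowance for length, and have no test.

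**Figure D4:**
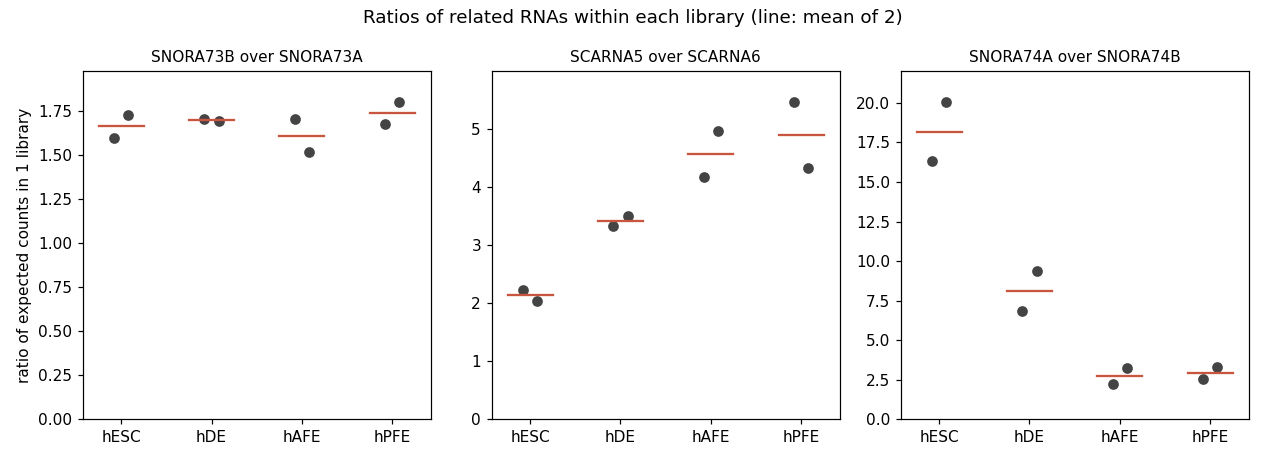
Ratios of expected counts of 2 related RNAs in the same library are plotted up from 0 for the 4 stages across; points are libraries and lines the mean of 2. SNORA73B over SNORA73A stays between 1.52 and 1.80, while SCARNA5 over SCARNA6 is 2.03 to 2.23 in hESC and 4.32 to 5.45 in hPFE.

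Host genes were set beside the RNAs they hold. A same-strand protein-coding or long non-coding gene held 16 of the 19, in 14 hosts; the U3 genes had none. Where more than 1 gene held an RNA, the one with the most counts was taken, and the counts of directions below rest on that choice. The difference between an RNA and its host was not tested. SNORA73A, SNORA53, SNORD97, SCARNA2 and SCARNA12 overlap an exon of the host, so reads may be shared there. Of the 14 hosts, 1 rose and 6 fell in hDE vs hESC, where 20.3% and 21.6% of all genes tested did. The 1 host that rose, ATP6V0E1, holds SNORA74B, which did not pass. In the same comparison 8 of the 16 RNAs passed, all of them higher, and in no case did the host pass in the same direction. In 3 cases the host passed in the opposite direction. NCAPD2, a condensin subunit that holds SCARNA10, was at 72.5 ± 12.5 CPM in hDE and 166.9 ± 18.2 in hESC (SD, n = 2; log2 fold change -1.20; adjusted p = 0.00971 by edgeR). SLC25A3, the mitochondrial phosphate carrier gene that holds SNORA53, fell by 0.89 on the log2 scale (adjusted p = 0.00248), and PHB2, a prohibitin gene that holds SCARNA12, fell by 0.46 (adjusted p = 0.0203). SNHG3, the non-coding host of both U17 genes, was at 124.1 and 124.0 CPM in hDE, against 127.5 and 165.2 in hESC, and did not pass (adjusted p = 0.236). RCC1, a chromatin-binding exchange factor gene that also holds both, fell by 0.76 in hDE vs hESC (adjusted p = 0.0173) and did not pass in hAFE vs hDE (log2 fold change 0.24, adjusted p = 0.398).

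In hAFE vs hDE 4 of the 14 hosts rose and 3 fell, where 15% and 15.2% of all genes tested did. The host passed in the same direction for 3 of the 10 RNAs that passed. SNHG3 fell by 0.72 on the log2 scale (adjusted p = 0.0101), beside falls of 2.17 in SNORA73B and 2.11 in SNORA73A. SNHG4, the non-coding host of SNORA74A, was at 11.6 and 18.8 CPM in hAFE, against 50.7 and 65.0 in hDE (log2 fold change -1.93, adjusted p = 0.00188), and the MATR3 entry that also holds SNORA74A fell by 1.20 (adjusted p = 0.00331). SLC25A3 rose by 0.51 (adjusted p = 0.0311) while SNORA53 fell. For the other 6 the host did not pass, among them ATG16L1, an autophagy gene, at 27.2 and 26.0 CPM in hAFE against 39.1 and 39.3 in hDE (adjusted p = 0.0962). In hPFE vs hESC 1 of the 14 hosts rose and 6 fell, where 21.6% and 23.3% of all genes tested did. There 3 of 8 RNAs that passed had a host that passed in the same direction and 2 had one in the opposite direction. The same direction was seen for SCARNA12 with PHB2, SNORA74A with SNHG4, and SCARNA2 with AL356488.2, which is listed at 0 in both hPFE libraries. SCARNA2 and SCARNA12 overlap an exon of these hosts, so reads may be shared there. The opposite direction was seen for SNORD17 with SNX5 and SCARNA16 with SEC14L1. SCARNA16 also lies within SNHG20, and SNORD17 within OVOL2. Neither of these genes passed in hPFE vs hESC, with log2 fold changes of -0.29 in SNHG20 and -0.58 in OVOL2 (adjusted p = 0.317 and 0.196 by edgeR). With SNHG20 taken as host, SCARNA16 would not be an opposite case.

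**Figure D5:**
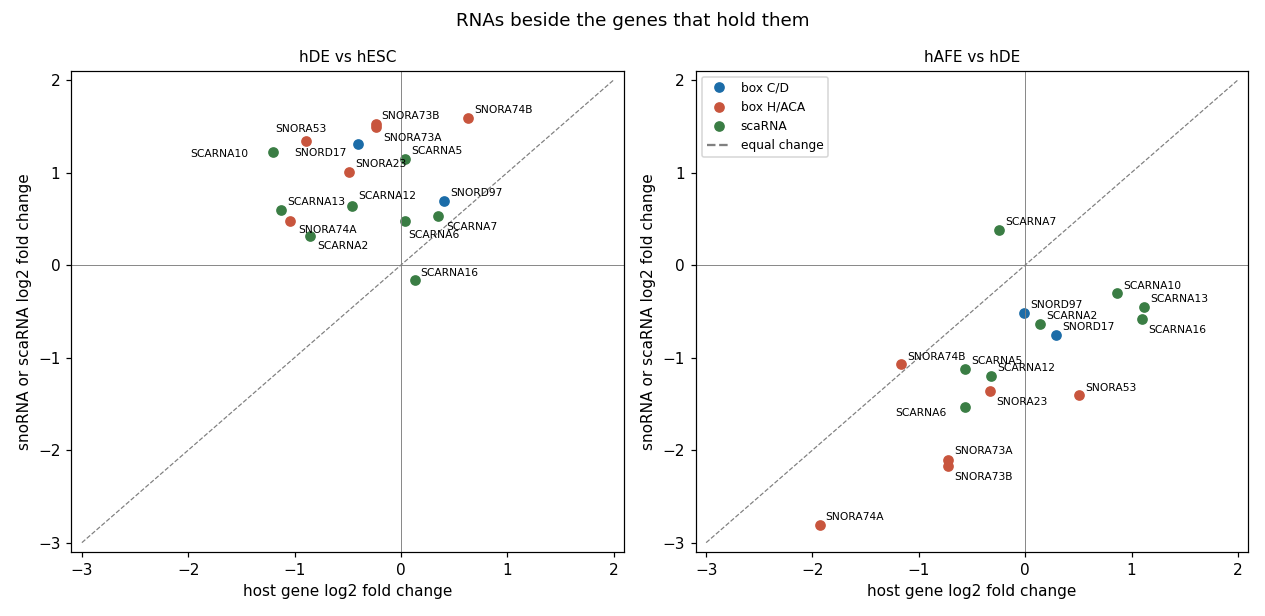
Each point is 1 of 16 intronic or exon-overlapping RNAs, with the host gene's log2 fold change across and the RNA's own up, for hDE vs hESC (left) and hAFE vs hDE (right); the dashed line marks equal change. In hDE vs hESC SCARNA10 sits at 1.22 up and its host NCAPD2 at -1.20 across, and in hAFE vs hDE SNORA73B sits at -2.17 up with SNHG3 at -0.72 across.

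The protein genes of the particles moved differently from the RNAs in hDE. The list held 35 genes for core proteins, assembly factors, nucleolar and Cajal body proteins and the U3 processome, and all 35 were tested. In hDE vs hESC 17 fell and 1 rose, where 21.6% and 20.3% of all genes tested did. All 4 box C/D core genes fell. FBL, the methyltransferase fibrillarin, was at 85.2 and 86.5 CPM in hDE, against 192.9 and 191.5 in hESC (log2 fold change -1.16, adjusted p = 0.00262 by edgeR). Of the box H/ACA core, NHP2, NOP10 and DKC1, which encodes the pseudouridine synthase dyskerin, fell by 0.98, 0.79 and 0.69 on the log2 scale, and GAR1 did not pass at 6.32 and 8.11 CPM in hDE, against 3.54 and 5.09 in hESC. NPM1, an abundant nucleolar protein gene, fell by 1.14 (adjusted p = 0.000657). RRP9, which encodes a U3-specific protein, was the 1 that rose, at 89.4 and 90.4 CPM in hDE, against 26.6 and 31.3 in hESC (log2 fold change 1.63, adjusted p = 0.000154). The count of calls in the list was 6 without the first hDE library, 8 without the second hESC library, 11 without the second hDE library and 15 without the first hESC library.

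In hAFE vs hDE 5 of the 35 fell (RRP9, ZNHIT3, SMN1, GAR1 and GEMIN2) and none rose, where 15.2% and 15% of all genes tested did. The share that fell was thus close to that of all genes tested. SMN1 is uncertain because SMN2 is a near copy. At an unadjusted p under 0.05, 1 of the list was higher, and DESeq2 called 0 higher and 3 lower. RRP9 was at 16.9 and 16.3 CPM in hAFE, against 89.4 and 90.4 in hDE (log2 fold change -2.44, adjusted p = 4.35e-05). The count was 2 without either hDE library or the second hAFE library. In hPFE vs hAFE NOLC1, NOP56, TCOF1 and RRP9 fell and none rose, where 2.71% and 4.77% of all genes tested did, with none higher at an unadjusted p under 0.05 or by DESeq2, which called 6 lower. These 4 calls were all lost when only the hAFE and hPFE libraries were fitted, and the count was 2 without the first hAFE library and 9 without the first hPFE library. In hPFE vs hESC 27 of 35 fell and none rose, where 23.3% and 21.6% of all genes tested did, again with none higher at an unadjusted p under 0.05 or by DESeq2, which called 26 lower. FBL was at 82.7 and 56.0 CPM in hPFE, against 192.9 and 191.5 in hESC (log2 fold change -1.47, adjusted p = 0.00103). COIL, the Cajal body scaffold coilin, did not pass at 26.7 and 30.7 CPM in hPFE, against 27.3 and 28.9 in hESC (adjusted p = 0.901).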

How the data were processed

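Total RNA was depleted of ribosomal RNA and made into strand-specific paired-end libraries, per the labels' protocols. The submitters' processing notes name RSEM, DESeq2 and hg38, with no version numbers. No source used here names an aligner. Per gene, the authors deposited RSEM expected counts, which estimate fragments and split shared reads, with effective lengths and posterior standard deviations. Symbols, positions and sequences came from GENCODE 29, whose identifiers matched all 58780 gene rows. Hosts were same-strand genes that hold the RNA, taking the one with the most counts over the 8 libraries.

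Expected counts were rounded and filtered (filterByExpr). The 8 libraries were fitted with 4 stage terms in edgeR 4.0.16 (R 4.3.3, TMM, quasi-likelihood test, Benjamini-Hochberg adjustment over 17446 genes, threshold 0.05), a step tested on simulated data. All 19 RNAs passed the filter. SE is the absolute log2 fold change over the square root of F. Named genes were all 19 RNAs with their hosts and protein genes from a list. Members and lists were chosen with earlier results of these data known. Alternatives were RLE, protein-coding scaling, DESeq2 1.42.0, 2 filters, fewer libraries, a replicate block and effective length offsets. TPM was not used, because effective lengths were short. A marker gene and a sequence are not reported here.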

Additional observations from a re-analysis of the deposited data

How the results depend on the processing

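The number of RNAs called was within 1.5 times under other scalings, filters, DESeq2, effective length offsets and the replicate block, except as follows. In hDE vs hESC it was 15 with only the 4 libraries compared and 5 in each case when a library was left out. In hAFE vs hDE it was 7 to 14 when a library was left out. In hPFE vs hAFE it was 1 without a count filter and with DESeq2, and 0 to 1 when a library was left out. In hPFE vs hESC it was 5 to 11. For the protein list the count was 6 to 15 in hDE vs hESC, 2 to 5 in hAFE vs hDE, 2 to 9 in hPFE vs hAFE and 18 to 29 in hPFE vs hESC when a library was left out. It was 3 with DESeq2 in hAFE vs hDE, and in hPFE vs hAFE 7 without a count filter and 0 with only the 4 libraries compared. The cause was not tested. A stage reduced to 1 library is assumed to vary like the rest. No called value changed sign, and 16 of 31 calls held in all 12 alternatives of each. The replicate block gave 8, 12, 0 and 10 calls among the RNAs and 18, 5, 4 and 27 in the list, in the order of the report. Correlations of same-numbered deviations between stages ran from -0.0410 to 0.0607 over 9852 genes. They gave no sign that replicate numbers pair the libraries, but a pairing with a small effect would not be seen this way. Depth limits SNORD97 and SNORA74B most, with 527.7 and 807 counts in all.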

Other observations

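Relatives of the U19 genes that fell short of 500 counts were also listed with counts in few libraries of the later stages. SNORA74C-2 had 17 and 14 counts in hESC, 3 and 9 in hDE, 1 and 0 in hAFE, and 0 and 1 in hPFE. SNORA74D, which is 141 bases long, had 20 and 5 counts in hESC, 4 and 8 in hDE, 4 and 0 in hAFE, and 0 and 3 in hPFE. The U3 relative SNORD3C had 22 and 19 counts in hESC, 23.5 and 24.4 in hDE, 13.3 and 10.2 in hAFE, and 7.32 and 8.32 in hPFE. These counts are too few for a comparison, and reads of near-identical copies may be shared.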
